A study of Mus musculus with 4 samples.

Results

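Elastic fibres give stretch to connective tissue, and the genes of their core and of the microfibrils around it were described here in mouse-hosted tumour xenografts. The 10 genes were Eln, Fbn2, Fbln1, Fbln2, Fbln5, Mfap2, Mfap4, Mfap5, Ltbp1 and Ltbp2. Every probe was taken whose platform annotation names exactly 1 gene symbol and for which that symbol is in this set, which gave 16 probes among 43154 tested values and 10 of 19087 genes. Of these genes, 5 had a single probe (Eln, Fbln2, Mfap4, Mfap5 and Ltbp2) and 5 had more than 1. The choice used names alone and no measured value, although it was made with earlier results of these data known.

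The tumours grew from MDA-MB-231, a cell line from a human breast carcinoma that lacks hormone receptors, in immunodeficient mice whose strain, sex and age are not given in the labels. Mice of 1 group received sunitinib, a drug that blocks kinase receptors for VEGF and PDGF among others, in a dose of 40 mg/kg/day, and those of the other received vehicle, with 2 samples per group. The series title speaks of withdrawal of the drug, and the labels do not state how long after the last dose the tumours were taken. The labels do not say either whether each sample is a separate animal. Each sample was 0.5 µg of total RNA with a RIN number of 9, hybridised to a single-colour mouse array, and by the array titles slide 1 held the replicates numbered 1 and slide 2 those numbered 2. The mouse probes read host cells, and human transcripts of the carcinoma cells that bind the same probes would add to the signal, which was not tested.

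An elastic fibre is built on a scaffold of microfibrils, which are bundles of fibrillin with associated glycoproteins. Tropoelastin, the secreted elastin monomer, is laid onto this scaffold with the help of fibulins and is cross-linked by lysyl oxidases. Latent TGF-beta binding proteins dock on the microfibrils, and some of them hold TGF-beta there in its latent form. Fibroblasts and smooth muscle cells are the usual makers of these proteins, and elastin itself is made mostly during growth and little in adult tissue.

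Upstream sequences of 4 of the genes are shown because the genes differ in how their probes behaved on the arrays. Fbln2 and the brightest Fbln5 probe read lower with sunitinib on both slides, Mfap2 read lower on slide 1 and higher on slide 2, and Ltbp2 read lower on slide 1 alone. The RefSeq promoter table (GRCm38.p6) held 6 of the 10 genes, and Eln, Fbn2, Mfap4 and Mfap5 had no entry. Each run is the 250 bases before the annotated start (the most upstream one where there are several), 5′ to 3′ on the gene's strand, at chr6:91212514-91212763 (plus) for Fbln2, chr12:101819120-101819369 (minus) for Fbln5, chr4:141010174-141010423 (plus) for Mfap2 and chr12:84876492-84876741 (minus) for Ltbp2. Capitals mark matches on either strand to TATAAA (the TATA box), GGGCGG (the GC box bound by Sp1), TGANTCA (AP-1) and CATTCC (TEAD).
Fbln2: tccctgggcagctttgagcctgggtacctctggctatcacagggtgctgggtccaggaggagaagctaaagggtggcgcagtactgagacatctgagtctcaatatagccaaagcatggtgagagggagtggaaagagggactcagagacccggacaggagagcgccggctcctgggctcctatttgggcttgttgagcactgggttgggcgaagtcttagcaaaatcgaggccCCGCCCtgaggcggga
Fbln5: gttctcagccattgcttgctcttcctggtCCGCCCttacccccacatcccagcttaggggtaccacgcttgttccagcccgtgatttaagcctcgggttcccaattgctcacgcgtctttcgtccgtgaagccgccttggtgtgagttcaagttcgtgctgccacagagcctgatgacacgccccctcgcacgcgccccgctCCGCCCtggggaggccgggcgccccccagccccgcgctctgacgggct
Mfap2: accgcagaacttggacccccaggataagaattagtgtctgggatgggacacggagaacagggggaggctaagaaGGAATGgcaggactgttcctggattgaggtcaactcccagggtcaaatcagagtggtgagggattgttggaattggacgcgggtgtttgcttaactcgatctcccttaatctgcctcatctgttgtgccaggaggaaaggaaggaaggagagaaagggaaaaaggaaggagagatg
Ltbp2: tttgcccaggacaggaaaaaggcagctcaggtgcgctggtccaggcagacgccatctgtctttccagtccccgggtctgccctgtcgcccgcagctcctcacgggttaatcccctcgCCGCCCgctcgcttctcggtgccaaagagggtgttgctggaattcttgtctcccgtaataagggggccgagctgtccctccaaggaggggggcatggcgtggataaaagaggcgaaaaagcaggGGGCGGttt

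The GC box occurred 1 time in the Fbln2 window, from 16 to 11 bases before the start. It occurred 2 times in the Fbln5 window and 2 times in the Ltbp2 window, where the nearer match lay 9 to 4 bases before the start. Among all 32851 windows of this length, 32.7% held it. The Mfap2 window held 1 TEAD match and no GC box, against 12.6% of all windows with a TEAD match. The window of a second annotated Mfap2 start, farther downstream, held 2 GC boxes and no TEAD match, and that of a second Fbln5 start held no GC box. None of the 4 windows held TATAAA (12.4% of all windows) or TGANTCA (6.75%), and no matches of different motifs overlapped. Fbln1 and Ltbp1, whose windows are not shown, held none of the 4 motifs before their most upstream start. The window of a second Fbln1 start held 1 GC box, and that of a second Ltbp1 start held no match. These matches describe the letters only.

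Most elastic fibre and microfibril genes read lower in the sunitinib tumours. By the brightest probe of each gene, 9 of the 10 had a lower mean with sunitinib, as did 9296 of all 19087 genes. The median log2 difference was -0.377, against 0.005 over all genes. In 7 of the 10, both sunitinib arrays lay below both vehicle arrays, which happened for 22.3% of all genes, and 0 of the 10 lay wholly above (25.9% of all genes). Over all 16 probes the groups did not overlap in 10 probes that read lower (21.6% of all tested values) and in 2 that read higher (25.5%). Probes of 1 gene share its transcripts and are not independent. The median within slide 1 was -0.495 and within slide 2 -0.385, where all genes stood at 0.0 and 0.02.

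None of the 16 probes passed the test. Across all 43154 tested values, limma with Benjamini-Hochberg adjustment called 1 (0.00232%), a probe of Xist, and the smallest adjusted p among the 16 probes was 0.352. At an unadjusted limma p under 0.05 there were 6 of the 16 probes, all lower, against 5.7% of tested values lower and 7.72% higher. A missed threshold at this number of arrays does not show that the values did not differ. With 2 arrays per group, an exact permutation test of a single value cannot go below p = 0.333 (two-sided). Xist, which is transcribed from the inactive X chromosome of female cells, and the Y-linked Eif2s3y separated the same arrays as the treatment did, with log2 differences of -3.26 and 1.595. These are the directions of a difference in the sex of the hosts, which the labels do not give. Treatment and such a difference cannot be told apart in any value given here.

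**Figure D1:**
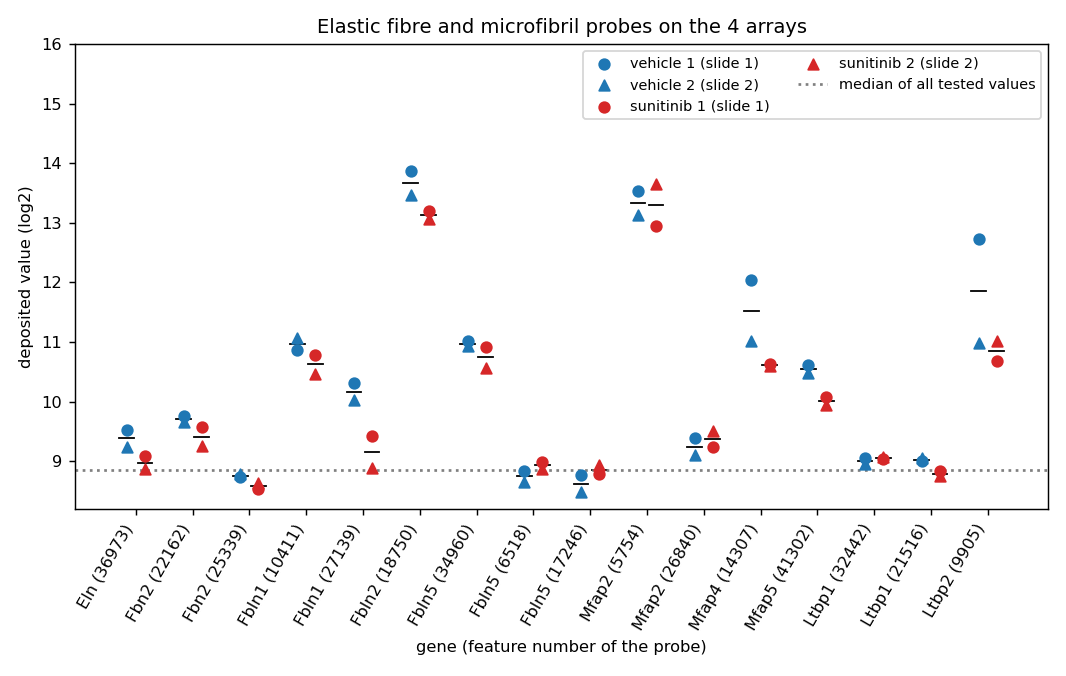
Deposited log2 values of the 16 probes on each of the 4 arrays, with vehicle in blue, sunitinib in red, circles for slide 1 and triangles for slide 2. Short black lines are group means of 2 arrays and the dotted line is the median of all tested values; heights of different probes are not comparable. Mfap5, Fbln2, Eln and both Fbln1 probes keep the red points below the blue ones, while Mfap2 and Ltbp2 do not.

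Eln, which encodes tropoelastin, read 9.08 and 8.87 in sunitinib replicates 1 and 2 and 9.53 and 9.24 in vehicle replicates 1 and 2. Both sunitinib arrays lay below both vehicle arrays, and the difference was similar on slide 1 (-0.45) and slide 2 (-0.37). The log2 difference was -0.41 (SE 0.138, n = 2 per group, limma adjusted p = 0.355). Leaving out vehicle replicate 1 gave -0.265. The mean of the 4 arrays (9.18) lay above 69.1% of all tested values, whose median was 8.86.

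Fbn2 encodes a fibrillin, the rod-like protein of the microfibril, and is known mainly from developing tissue. Its brighter probe, designed to the RefSeq mRNA, read 9.57 and 9.26 under sunitinib and 9.76 and 9.66 under vehicle. The sunitinib arrays were the lower ones, by 0.09 at the nearest approach of the groups. The difference was -0.295 (SE 0.13, limma adjusted p = 0.397), with -0.19 on slide 1 and -0.40 on slide 2. It was -0.14 without sunitinib replicate 2 and -0.45 without sunitinib replicate 1. A probe to a cDNA clone of Fbn2 lay below the median of all tested values, at 8.53 and 8.64 against 8.74 and 8.78. It also read lower with sunitinib, with a mean difference of -0.175, although the sign turned (0.041) once smooth spatial trends across the array were removed. Fbn1, the main fibrillin of adult tissue, is not analysed here.

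The fibulins bridge elastin, microfibrils and basement membranes. Fbln1 had probes of unequal size of difference. The brighter gave 10.79 and 10.46 on the sunitinib arrays and 10.87 and 11.07 on the vehicle arrays, and the groups came within 0.08 of each other on slide 1. Its difference was -0.345 (SE 0.146, limma adjusted p = 0.388), with -0.08 on slide 1 and -0.61 on slide 2, and it was -0.18 without sunitinib replicate 2. The dimmer Fbln1 probe, annotated to the same mRNA, read 9.42 and 8.88 with sunitinib and 10.32 and 10.02 with vehicle. All of its sunitinib values lay at least 0.60 below the vehicle values, and it gave the lowest mean difference of the 16 probes, -1.02 (SE 0.212, limma adjusted p = 0.352), with -0.90 and -1.14 on the slides. The gene carries several transcript isoforms, and the part of the mRNA that each probe covers is not known here.

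Fbln2, a large fibulin that binds both fibrillin and tropoelastin, stood at 13.20 and 13.06 after sunitinib treatment, compared with 13.87 and 13.47 after vehicle. Vehicle replicate 1 stood highest, and both sunitinib arrays were lower than either vehicle array. The difference was -0.54 (SE 0.156, limma adjusted p = 0.352), with -0.67 and -0.41 on slides 1 and 2. It was -0.34 without vehicle replicate 1.

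Fbln5 is needed in mice for tropoelastin to assemble into fibres, and its probes disagreed. The brightest read 10.92 and 10.57 under sunitinib and 11.02 and 10.93 under vehicle. The groups were apart by 0.01 only, between sunitinib replicate 1 and vehicle replicate 2. The difference of -0.23 (SE 0.139, limma adjusted p = 0.486) shrank to -0.055 without sunitinib replicate 2. The other Fbln5 probes lay near the median of all tested values and read higher with sunitinib, by 0.185 (8.99 and 8.87 against 8.83 and 8.66) and by 0.23 (8.78 and 8.93 against 8.77 and 8.48). These were the 2 probes of the 16 on which both sunitinib arrays lay above both vehicle arrays. With the position trend across the array removed, these differences were 0.008 and 0.156, and without vehicle replicate 2 they were 0.10 and 0.085. No direction for Fbln5 is common to its probes.

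Microfibril-associated glycoproteins sit on the fibrillin scaffold. Mfap5 gave 10.07 and 9.95 on the sunitinib arrays and 10.61 and 10.48 on the vehicle arrays. The arrays of a group were close, with gaps of 0.12 and 0.13, and the groups stood well apart. The difference was -0.535 (SE 0.096), nearly the same on slide 1 (-0.54) and slide 2 (-0.53), and between -0.60 and -0.47 over all alternatives. Its unadjusted limma p of 0.00274 was the smallest of the 16 probes, and the adjusted p was 0.352.

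Mfap4, a glycoprotein with a fibrinogen-like domain that binds elastin and collagen, stood at 10.64 and 10.59 after sunitinib treatment, compared with 12.04 and 11.01 after vehicle. Vehicle replicate 1 stood far above the other arrays, and vehicle replicate 2 was still above both sunitinib arrays. The difference was -0.91 (SE 0.339, limma adjusted p = 0.366), with -1.40 on slide 1 and -0.42 on slide 2. Without vehicle replicate 1 it was -0.395, and without vehicle replicate 2 it was -1.425.

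Mfap2, the close relative of Mfap5, did not follow it. The brighter probe read 12.94 and 13.65 under sunitinib and 13.53 and 13.13 under vehicle. The highest and the lowest value were both in sunitinib arrays, with the vehicle values between them. The mean difference was -0.035 (SE 0.272, limma adjusted p = 0.967), made of -0.59 on slide 1 and 0.52 on slide 2. A dimmer Mfap2 probe showed the same split at a smaller size, with 9.24 and 9.51 against 9.39 and 9.10, which is -0.15 on slide 1 and 0.41 on slide 2. With an SE of 0.272, a difference of the size seen for Mfap5 could not be told from 0 on the brighter probe.

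**Figure D2:**
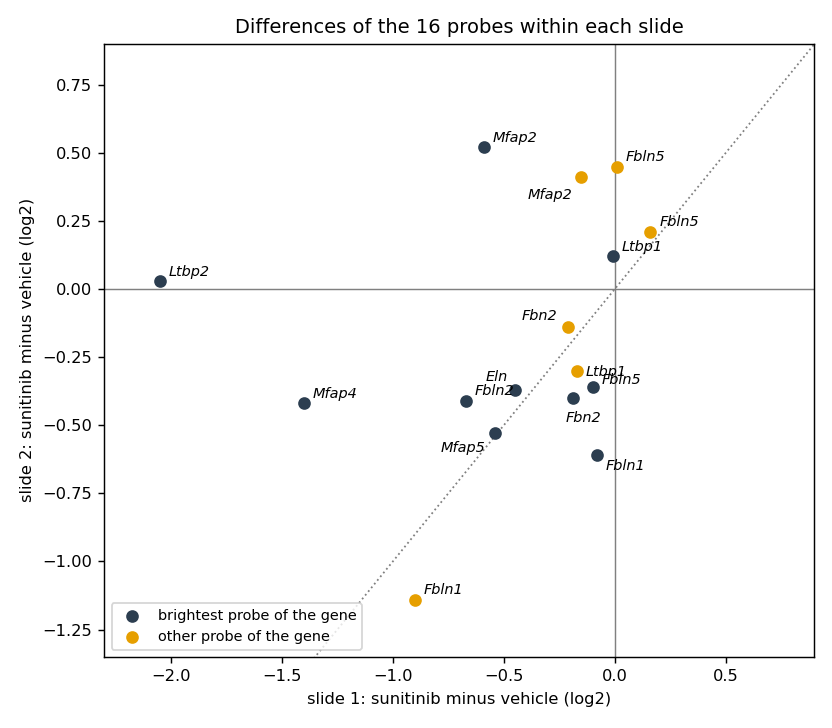
Sunitinib minus vehicle log2 difference of each of the 16 probes on slide 1 (horizontal axis) and on slide 2 (vertical axis), each from 1 array per group. Dark points are the brightest probe of a gene, orange points its other probes, and the dotted line marks equal differences. Mfap5 lies on the line at -0.54 and -0.53, Ltbp2 at -2.05 and 0.03, and both Mfap2 probes at the upper left.

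The latent TGF-beta binding proteins differed between themselves. Ltbp2, which binds fibrillin and unlike its relatives does not carry latent TGF-beta, gave 10.68 and 11.02 on the sunitinib arrays and 12.73 and 10.99 on the vehicle arrays. Vehicle replicate 1 alone was high, and the other 3 arrays lay within 0.34 of each other. The mean difference of -1.01 (SE 0.572, limma adjusted p = 0.464) was thus -2.05 on slide 1 and 0.03 on slide 2. It was -0.14 without vehicle replicate 1 and -1.88 without vehicle replicate 2.

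Ltbp1, a carrier of latent TGF-beta, read near the median of all tested values. Its brighter probe gave 9.04 and 9.07 with sunitinib against 9.05 and 8.95 with vehicle, with overlapping groups and a difference of 0.055 (SE 0.084, limma adjusted p = 0.782). The other gave 8.83 and 8.75 against 9.00 and 9.05, lower in both sunitinib arrays, with a difference of -0.235 (SE 0.083, limma adjusted p = 0.361). With the position trend removed, the differences were 0.011 and -0.056, so that neither probe gives a direction for Ltbp1.

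**Figure D3:**
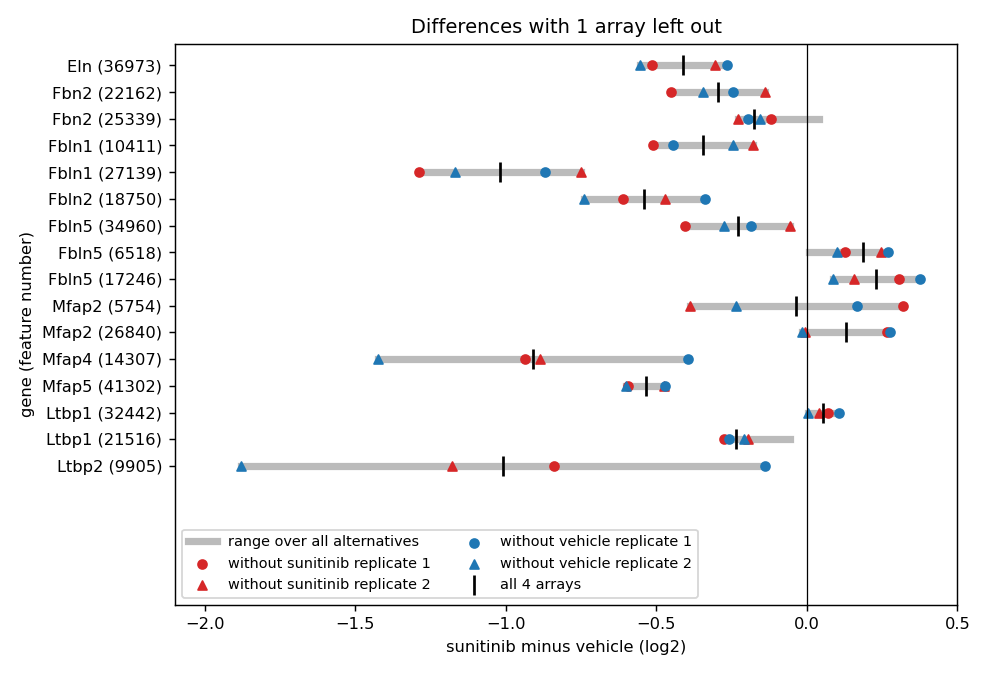
Sunitinib minus vehicle log2 difference of each probe with all 4 arrays (black tick), with each array left out in turn (coloured points) and over all alternative settings (grey bar). Mfap5 stays between -0.60 and -0.47, while Ltbp2 reaches -0.14 and Mfap4 -0.395 once vehicle replicate 1 is left out.

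By the brightest probe, vehicle replicate 1 was the highest array for 7 of the 10 genes (24.1% of all genes), and sunitinib replicate 2 was the lowest for 7 of the 10 (25.6%). The mean over the 10 genes was 10.693 and 10.65 on the sunitinib arrays and 11.301 and 10.893 on the vehicle arrays. Both sunitinib means were below both vehicle means, and the vehicle means lay farther apart than vehicle replicate 2 and the sunitinib arrays did. The medians over the 10 genes were 10.66 and 10.515 on the sunitinib arrays and 10.945 and 10.96 on the vehicle arrays, so that the vehicle medians were nearly equal. The high mean of vehicle replicate 1 came largely from Ltbp2 and Mfap4, whose vehicle arrays were 1.74 and 1.03 apart.

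The other genes of elastic fibre biology formed lists drawn up from knowledge of the pathway. Of 52 genes, 47 had a named probe that was not saturated, 0 passed in limma over all tested values (0.00524% of all genes did), and 11 were lower and 1 higher at an unadjusted p under 0.05 (6.32% and 8.44% of all genes). Their median difference was -0.15, with 19 of 47 lower without overlap (40.4%, against 22.3% of all genes) and 6 higher (12.8%, against 25.9%). The medians were -0.21 on slide 1 and -0.07 on slide 2. Ctss was saturated on all 4 arrays, and Efemp2, Adamts17 and Fkbp10 are not analysed here.

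Of the cross-linking and assembly genes, 6 of 13 were lower and 1 higher without overlap, against 22.3% and 25.9% of all genes (median -0.195). Lox, the oxidase that starts cross-links in elastin and collagen, stood at 9.99 and 9.68 after sunitinib treatment, compared with 11.12 and 10.58 after vehicle. Both sunitinib arrays were the lower, with a difference of -1.015 (SE 0.214, limma adjusted p = 0.352). Loxl1, the relative that works on elastin together with Fbln5, read 13.30 and 13.63 against 13.85 and 13.62. Its groups overlapped, with a difference of -0.27 on the mean, -0.55 on slide 1 and 0.01 on slide 2. Bgn, a proteoglycan that binds microfibrils and tropoelastin, differed by -0.995 (SE 0.232) on its brighter probe and by 0.09 on a dim one. Loxl2 (0.065) and Loxl3 (-0.185) lay nearer to 0.

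Among the other fibulins, microfibril, LTBP and EMILIN proteins, 6 of 13 were lower and 2 higher without overlap, beside the same shares of all genes (median -0.09). Mmrn1, a multimerin of platelets and endothelium, differed by -0.875 (SE 0.261) and by 0.27 on a second probe. Mfap1a differed by -0.47 (SE 0.177), although its product, despite the name, is known as a splicing protein of the nucleus. Efemp1, a further fibulin, had the highest mean difference of this list (0.66, SE 0.464), with -0.22 on slide 1 and 1.54 on slide 2. Emilin2, a glycoprotein of the elastin interface, was split in the same way (-0.47 and 1.10).

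Of the proteases that degrade elastin or its surroundings, 3 of 9 were lower and 1 higher without overlap, where 22.3% and 25.9% of all genes were (median -0.215). The gelatinase Mmp2 gave 11.79 and 11.48 on the sunitinib arrays and 12.61 and 12.03 on the vehicle arrays (difference -0.685, SE 0.224). Ctsk, a collagen- and elastin-cleaving cathepsin, differed by -0.365 (SE 0.139), and Ctsl by -0.215 (SE 0.243) with overlapping groups. Mmp14, a membrane-bound protease, differed by -0.87 (SE 0.374), with -1.55 of it on slide 2 and -0.19 on slide 1, and by 0.01 on a dimmer probe.

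Of the receptors and TGF-beta ligands, 4 of 12 were lower and 2 higher without overlap, again beside 22.3% and 25.9% of all genes (median -0.08). Itgb5, an integrin chain whose dimer binds latent TGF-beta, gave 14.86 and 14.91 on the sunitinib arrays and 15.29 on each vehicle array (difference -0.405, SE 0.079). Tgfb3 read 11.27 and 11.36 against 12.07 and 11.82 (difference -0.63, SE 0.115), and Tgfb1 differed by 0.197 (SE 0.107). Neu1, the sialidase of the elastin receptor complex, differed by 0.36 (SE 0.17) on its brightest probe and by 0.01 and 0.32 on the others. None of the genes named from these 4 lists passed (limma adjusted p of 0.352 or more).

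**Figure D4:**
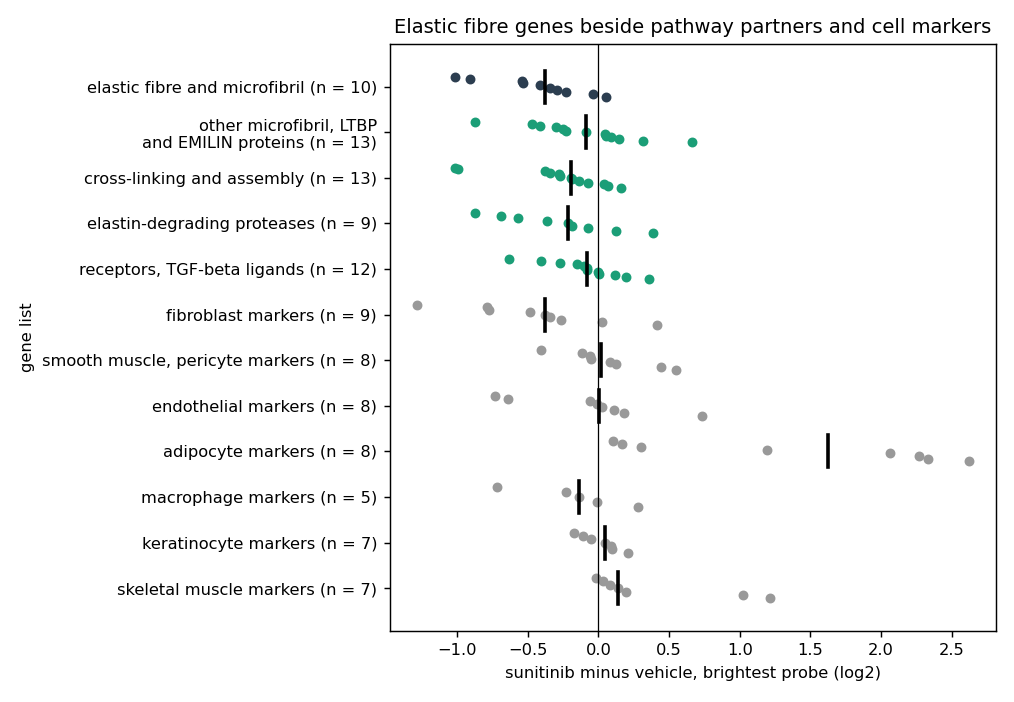
Sunitinib minus vehicle log2 difference by the brightest probe for the elastic fibre genes (dark), 4 lists of pathway partners (green) and 7 lists of cell markers (grey), where each point is a gene, the vertical bar is the list median, and genes saturated on any array are left out. The medians of the elastic fibre genes (-0.377) and of the fibroblast markers (-0.38) lie below 0, and that of the adipocyte markers lies at 1.625.

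Markers of the cells that could supply these transcripts were read on the same arrays. Of 9 fibroblast markers that were not saturated, 6 were lower and 0 higher without overlap (22.3% and 25.9% of all genes), with a median of -0.38. Pdgfra, a receptor of fibroblasts, read 9.84 and 9.89 under sunitinib and 10.98 and 10.32 under vehicle. Pdgfrb, a receptor of fibroblasts and pericytes that sunitinib inhibits, differed by -1.28 (SE 0.414) and Thy1 by -0.485 (SE 0.124) on its brighter probe and -0.01 on the other. S100a4 (0.415) and Dpt (0.025) had positive differences with overlapping groups. Fap and Postn, which are among the 6 lower markers, differed by 0.00 and 0.26 on their other probes. Dcn (-0.34) stands both in this list and in that of cross-linking and assembly genes. The mean over the 10 measured fibroblast markers, Col3a1 near saturation among them, was 12.802 and 12.548 on the sunitinib arrays and 13.31 and 12.817 on the vehicle arrays. Sunitinib replicate 1 and vehicle replicate 2 were thus nearly level. The list of other fibulins, microfibril, LTBP and EMILIN proteins had this order of array means too (10.386 and 10.359 with sunitinib, 10.526 and 10.421 with vehicle). By list medians, sunitinib replicate 1 lay above vehicle replicate 2 in the fibroblast list (13.42 against 13.195). The same held in that other list (10.13 against 10.12), so that the groups overlapped by medians in both. Fewer fibroblasts and less RNA per fibroblast cannot be told apart in these bulk samples, and the part of the fibroblast markers in the results was not tested.

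Smooth muscle and pericyte markers had a median of 0.016, with 1 of 8 lower and 3 higher without overlap, against 22.3% and 25.9% of all genes. Smtn (0.44, SE 0.078) and Cnn1 (0.55, SE 0.232) were among the 3. Acta2 (-0.058), Tagln (-0.405) and Myh11 (0.125) had slide 1 differences of -0.58, -1.12 and 0.10 and slide 2 differences of 0.465, 0.31 and 0.15. Acta2 and Tagln thus split between the slides in the direction that Mfap2 did. Markers of other cells did so too, such as Dpt (-0.78 and 0.83), Mrc1 (-0.76 and 0.48) and Cd163 (-1.63 and 0.20). Of all 19087 genes, 7647 had slide differences of opposite sign or at least 1 at 0, so that such a split is common. The mean of the smooth muscle list was 10.835 and 10.888 on the sunitinib arrays and 11.029 and 10.551 on the vehicle arrays, so that the groups overlapped.

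Adipocyte markers read higher with sunitinib, with 6 of 8 above without overlap and 0 below, where 25.9% and 22.3% of all genes were. Adipoq differed by 2.33 (SE 0.209), Plin4 by 2.265 (SE 0.207) and Plin1 by 1.19 (SE 0.139). The mean of the adipocyte list was 10.952 and 10.978 on the sunitinib arrays and 9.748 and 9.421 on the vehicle arrays. Its part in the lower values of the elastic fibre genes was not tested. Endothelial markers had a median of 0.007 and macrophage markers, with 5 of 7 measured, -0.14. The first 3 endothelial markers were Pecam1 (0.113), Cdh5 (0.735) and Kdr (-0.062), where Cdh5 was split into 1.61 on slide 1 and -0.14 on slide 2 and differed by -0.025 on its other probe. Vwf (-0.73, SE 0.097, limma adjusted p = 0.352) was lower without overlap and negative on all 3 of its probes. Erg differed by -0.64 with overlapping groups (0.13 on slide 1 and -1.41 on slide 2) and by 0.20 on its other probe. Of the 8 endothelial markers, 1 (Vwf) was lower and 2 (Pecam1 and Tek, 0.18) were higher without overlap, where 22.3% and 25.9% of all genes were. Of the macrophage markers, Adgre1 differed by 0.28, and the other 4 by -0.715 (Cd163), -0.225 (Mertk), -0.14 (Mrc1) and -0.01 (Itgam). Keratinocyte markers lay near the median of all tested values in every array (list means of 8.859 to 8.927), with Krt5, Krt14 and Krt1 at differences of -0.175, 0.05 and -0.05. Of the skeletal muscle markers, Myh4 (1.215) had 1 far lower array, vehicle replicate 2, and Myh1 (0.195) and Ckm (-0.015) differed less. Tnnc2 (1.025) was also lowest in vehicle replicate 2, at 7.85. Mean differences were positive for 6 of the 7 and negative for 1, with a median of 0.14. Without overlap, 0 were lower and 1 (Myh1) was higher, against 22.3% and 25.9% of all genes.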

How the data were processed

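Agilent mouse arrays of a single colour (Cy3) were used for total RNA of the 4 tumour samples, per the labels. The values deposited by the authors are on a log2 scale, with a single value for each feature of an array, and were made with limma per the submitters' processing notes. Its version, background correction and normalization are not given in the sources. The scale was read from the values (6.75 to 16.34), whose quartiles nearly coincided across arrays (medians 8.89 to 8.90), and they were used as deposited. No detection flags were used, and saturation was set at 15.95, which no elastic fibre probe reached (highest 13.87). The number of arrays limits the precision.

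Of 45220 features, 33653 had 1 gene, 56 several and 11511 were not listed in the platform annotation. Symbols were updated through RefSeq gene numbers (99.6% matched). Probes with 8 or more copies (217) were combined by their median, which left 43154 tested values, of which 11567 had no single gene and could include control spots. Each gene was read from its brightest probe.

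The groups were compared by lmFit and eBayes in limma 3.58.1 (R 4.3.3), treatment as the factor, 2 residual degrees of freedom, and Benjamini-Hochberg adjustment over all tested values at 0.05. The fit was tested on simulated data, where changes of about the size of the largest elastic fibre differences were not called with 2 arrays per group. Smaller changes were not simulated. Since separate animals are not stated, p-values reflect only the variation among these samples, possibly technical. A list was described by counts and medians beside all genes. The slide pairs the samples, per the array titles, and deviations of arrays that share a slide correlated at -0.225. Titles also put vehicle on array 1 and sunitinib on array 2 of each slide, so that array and treatment cannot be told apart.

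Members and lists were chosen with earlier results of these data known. Named were all 10 members, from each partner list the 2 lowest and 2 highest differences among genes above the median level (9.08) with no saturated array, Lox, Loxl1, Tgfb1, the first 3 markers of each cell list where measured, Xist and Eif2s3y. Ctss and Col3a1 are named outside this rule, for saturation, and Dcn because 2 lists hold it. S100a4, Dpt, Fap, Postn, Smtn, Cnn1, Vwf, Erg, Tek, Cd163, Mertk, Mrc1, Itgam and Tnnc2 were named after their values were seen. Alternatives were the slide as a block, repeated quantile normalization, centring, leaving out probes under the 30th percentile, a floor at the 5th percentile, a trended robust prior, removal of a position trend (running median of 21 by 21 features, on a layout of 532 rows and 85 columns inferred from the feature numbers) with and without the block, the mean of all probes, and omission of each array in turn. Once the data had been seen, listed features alone and a crossed block were added.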

Additional observations from a re-analysis of the deposited data

How the results depend on the processing

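None of the 16 probes passed under any alternative, with a lowest adjusted p of 0.28 for Mfap5 and for the dimmer Fbln1 probe. The count of elastic fibre probes that were lower without overlap was 10 with all arrays (21.6% of all tested values) and 9 to 12 under the alternatives. The 12 came without sunitinib replicate 2, where 35.5% of all tested values were lower without overlap. With any 1 array left out this share was 33.5% to 35.5%, so that these counts are not comparable with the 10. The median difference of the 10 genes ran from -0.512 (without sunitinib replicate 1) to -0.255 (without vehicle replicate 1), and that of the 47 partner genes from -0.20 to -0.10. Signs turned for the dim Fbn2 probe (0.041 with the position trend removed, with or without the slide as a block) and for Mfap2. The brighter Mfap2 probe ran from -0.39 without sunitinib replicate 2 to 0.32 without sunitinib replicate 1 and was at 0.165 without vehicle replicate 1, and the dimmer was at -0.005 without sunitinib replicate 2 and at -0.015 without vehicle replicate 2. The cause was not tested. Over all tested values, 1 was called, against 0 with the replicate block (slide), 0 with any 1 array left out, 2 after centring on the median, 2 with listed features alone, 6 with a trended robust prior, and 4 with the position trend removed, with or without the replicate block. With crossed replicate numbers as the block, 0 were called. The block changed no call of an elastic fibre probe. It leaves 1 residual degree of freedom, as leaving out 1 array does, so that a lost call does not show disagreement between slides. Signal over background is not known here, which limits what can be read of probes near or below the median level, those of Ltbp1 and the dim ones of Fbn2 and Fbln5. The limit also holds for the sunitinib values of Eln (9.08 and 8.87) and for sunitinib replicate 2 on the dimmer Fbln1 probe (8.88).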
